A study of Mus musculus with 6 samples.

Results

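The 42 genes described here encode nuclear hormone receptors of the mouse. They were taken as a family by name, leaving out the circadian clock receptors and Pparg, and not by any measured value. The Agilent arrays read 44702 genes or unnamed transcripts, and 41 of the 42 receptor genes had at least 1 probe. No probe matched Rorb, a retinoid-related orphan receptor. The tested cells were NIH3T3, an established line of mouse embryonic fibroblasts, that stably carried a pCX4bsr retroviral vector expressing GGCT (gamma-glutamylcyclotransferase, an enzyme of glutathione breakdown), labelled GGCT-OE. The comparison cells were NIH3T3 with the control vector, labelled empty. Both populations were grown in medium with 2% serum and without any added receptor ligand named in the labels, 3 arrays each, numbered as experiments 1 to 3. The species of the GGCT sequence, its promoter and whether the populations were clonal are not given in the sources used here. The comparison asks which receptor transcripts differ when GGCT is overexpressed.

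Nuclear receptors are transcription factors that bind small lipophilic molecules such as steroids, thyroid hormone, vitamin D, retinoic acid, oxysterols and fatty acids. Many of them bind DNA as a pair with a retinoid X receptor. Some steroid receptors, such as the glucocorticoid receptor, wait in the cytosol in a complex with heat shock chaperones until a hormone arrives. Orphan receptors have no settled hormone, and several are controlled mainly by how much of them a cell makes. Without ligand, many receptors hold corepressors on their target genes, and ligand exchanges these for coactivators.

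Every level below is a log2 processed intensity relative to the 75th percentile of its array, and levels are compared only within a probe. Depending on the array, 54.6% to 61.7% of probes exceeded background, and the percentile used for scaling lay between 380.0 and 471 intensity units. Ggct itself, read by a single mouse probe, stood at -0.14, 0.20 and -0.16 on the GGCT-OE arrays, against -0.57, -0.72 and -0.66 on the empty arrays (difference 0.62 ± 0.12 SE, limma adjusted p = 0.0111). As the species of the introduced sequence is not given, this probe may not read the vector transcript, and the difference may not measure the overexpression. All 12 fibroblast marker genes were above background on all 6 arrays, and their summed linear level was 966 to 1190 on the GGCT-OE arrays and 1260 to 1500 on the empty arrays. At a limma adjusted p under 0.05, 5 of the 12 were lower and 3 higher in GGCT-OE cells, where 34.8% of all genes tested passed. The sum therefore does not describe each marker. Of the 6 epithelial, 5 endothelial, 5 haematopoietic, 6 adipocyte, 4 skeletal muscle and 5 neural and glial markers, Epcam, Cdh1, Kdr, Tek, Ptprc, Adgre1, Lyz2, Adipoq, Plin1, Cidec, Fabp4, Myog, Ckm and Olig2 were above background on no array. Krt8, Cldn4, Pecam1, Cd68, Csf1r, Pparg, Lep, Gfap, Nes and Tubb3 were above background on all 6 arrays, of which Krt8 (1.18), Cldn4 (0.49), Pecam1 (0.43) and Gfap (0.53) rose and Pparg (-0.48) and Cd68 (-0.27) fell. The endothelial cadherin gene Cdh5 was above background on the 3 GGCT-OE arrays and on no empty array (at least 2.18-fold higher), and the endothelial Vwf was above background on the 3 empty arrays only (at least 1.44-fold lower). Summed levels were 0.243 to 0.288 on GGCT-OE arrays and 0.181 to 0.215 on empty arrays for the endothelial markers, and 18.9 to 22.2 on GGCT-OE arrays and 13.6 to 16.2 on empty arrays for the epithelial markers. Their part in the receptor results was not tested. With total RNA from whole cultures, fewer cells that make a transcript and less transcript per cell cannot be told apart.

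Of the 41 receptor genes with a probe, 23 were well above background on all 6 arrays, 12 on none and 6 on some. Testing required the brightest probe of a gene to exceed background throughout GGCT-OE or throughout empty, which 25 receptor genes met. Of these 25, 4 fell and 3 rose in GGCT-OE cells at a Benjamini-Hochberg adjusted p under 0.05 over all genes tested (limma), and 18 did not pass. The share called was 28% of the receptors tested, against 34.8% of all 23774 genes tested. Over all genes 17.5% were called higher and 17.3% lower. The genes that fell were Rarb, Vdr, Nr3c2 and Thra, and those that rose were Nr2f1, Nr2f2 and Nr5a1. The median difference was 0.07 over the 25 receptors and 0.02 over all genes tested. With the experiment number as a block, 5 receptors were higher and 5 lower, where 53.4% of all genes were called, the additions being Nr2c2, Nr2f6 and Rarg. Each of the 7 called receptors gave p = 0.1 in an exact 2-sided permutation test, the smallest value that 3 against 3 arrays allow.

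**Figure D1:**
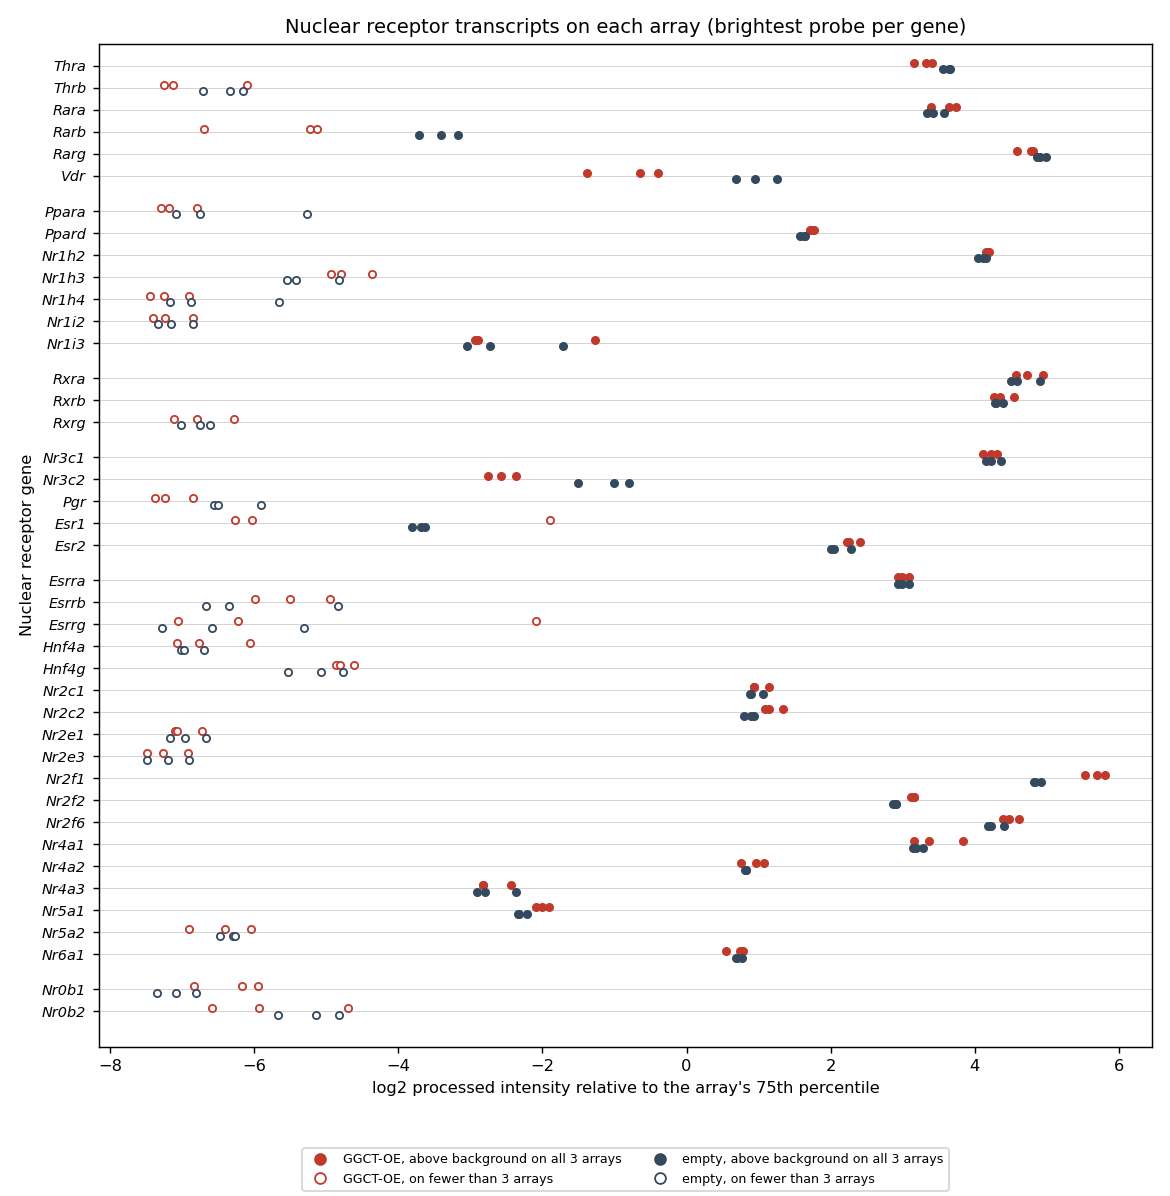
Level of the 41 receptor genes with a probe on each of the 6 arrays (log2 scale, 75th percentile of the array at 0, brightest probe), GGCT-OE above empty within each gene. Filled points mark groups in which all 3 arrays were well above background, and levels are not comparable between genes. Rarb, Vdr and Nr3c2 lie to the left in GGCT-OE cells with no overlap, and Nr2f1 lies to the right.

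Among the receptors for hormones and vitamins, 3 of the 5 tested fell and none rose (Rarb, Vdr and Thra), and Rara and Rarg did not pass. Over all genes tested 34.8% were called, 17.3% of them all as lower, and no test was run on this small group. Rarb, a retinoic acid receptor whose own gene is a textbook retinoic acid target, stood at -5.23, -5.13 and -6.69 in GGCT-OE cells, against -3.41, -3.17 and -3.71 in empty cells. None of the GGCT-OE arrays was well above background and all 3 empty arrays were. Rarb was therefore at least 2.81-fold lower in GGCT-OE cells. Its fitted difference was -2.26 ± 0.43 (SE, limma adjusted p = 0.0101), but that size rests on readings below background, and the gene passed the filter only through the empty arrays. With a filter over all 6 arrays it is not tested. The signal was dim: with normexp background, whose offset compresses dim probes, the difference was -0.56, and the call was lost with the mean of the gene's 3 probes (-0.81) and without both arrays of experiment 2 (adjusted p = 0.0733). The other probes of Rarb differed by -0.36 and 0.18 and were above background on 1 and 0 of the 6 arrays.

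Promoter sequence bears on Rarb because its start region is known to hold a retinoic acid response element, a direct repeat on which a retinoic acid receptor pairs with a retinoid X receptor. RefSeq promoter windows (build GRCm38.p6) matched 38 of the 42 receptor genes by symbol, and the 250 bases upstream of the start were searched on both strands. The motif searched was GTTCA, any 6 bases and GTTCA again, the core of such a repeat with 5 bases between its repeat units. It occurred in 22 of 32851 windows (0.067%), and among receptor genes in that of Rarb only. As the Rarb element was known beforehand, its match is not a finding of this search. Repeats built from other letters were not searched. The match in Rarb, printed in capitals, ends 36 bases before the start. The window lies at chr14:16575477-16575726 on the minus strand.

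Rarb: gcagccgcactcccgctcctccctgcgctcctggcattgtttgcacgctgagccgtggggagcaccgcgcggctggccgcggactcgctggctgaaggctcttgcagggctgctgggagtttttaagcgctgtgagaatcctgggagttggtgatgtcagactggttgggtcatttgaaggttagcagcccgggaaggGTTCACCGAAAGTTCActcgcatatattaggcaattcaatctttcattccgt

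Vdr, the vitamin D receptor, stood at -0.40, -1.38 and -0.64 in GGCT-OE cells, against 1.25, 0.69 and 0.95 in empty cells. Every GGCT-OE array lay below every empty array, and all 6 were above background. The level averaged -0.81 ± 0.51 in GGCT-OE cells and 0.96 ± 0.28 in empty cells (SD, n = 3 each), a 3.42-fold decrease (log2 difference -1.77 ± 0.28 SE, limma adjusted p = 0.00513). Within slide 1 the difference was -1.65 and within slide 2 it was -1.83. The call was lost without both arrays of experiment 3 (adjusted p = 0.0745), while the difference stayed between -1.98 and -1.49 over 22 alternatives. Cyp24a1, the vitamin D catabolic enzyme and a standard Vdr target, was above background on no array.

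The thyroid hormone receptor Thra stood at 3.32, 3.16 and 3.41 in GGCT-OE cells, against 3.66, 3.56 and 3.64 in empty cells. The groups did not overlap, but the step was small (1.25-fold lower, log2 difference -0.32 ± 0.095 SE, limma adjusted p = 0.0436). Its 2 dimmer probes differed by -0.61 and -0.52, so all 3 probes read lower in GGCT-OE cells. Quantile normalization (adjusted p = 0.0808) and the lack of a filter on dim probes lost the call. So did leaving out any single array, with adjusted p between 0.0640 and 0.142 and differences between -0.38 and -0.25. The related Thrb was above background on no array.

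The other retinoic acid receptors, Rara and Rarg, did not pass the test. Rarg stood at 4.59, 4.78 and 4.81 in GGCT-OE cells, against 4.86, 4.91 and 4.99 in empty cells, a non-overlapping difference of -0.19 ± 0.094 (SE, limma adjusted p = 0.163, and 0.0466 with the experiment number as a block). Rara stood at 3.74, 3.39 and 3.64 in GGCT-OE cells, against 3.57, 3.34 and 3.42 in empty cells, which overlap, and its 2 probes differed by 0.15 and -0.14. Whether Rarb differed more than Rara and Rarg was not tested.

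Of the 5 steroid receptors, 4 were tested and only Nr3c2 was called, where 34.8% of all genes were. Nr3c2, the mineralocorticoid receptor that also binds glucocorticoids, stood at -2.76, -2.58 and -2.36 in GGCT-OE cells, against -1.50, -0.80 and -1.01 in empty cells. The groups did not overlap and all 6 arrays were above background. Nr3c2 fell 2.76-fold (log2 difference -1.46 ± 0.20 SE, limma adjusted p = 0.00325), by -1.26 within slide 1 and -1.57 within slide 2. With normexp background the difference was -0.90. Its other probes differed by -1.25 and -0.81 but were above background on 2 and 0 of the empty arrays and on no GGCT-OE array. The call was lost without both arrays of experiment 2 or of experiment 3 (adjusted p up to 0.0567).

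Start regions of Vdr and Nr3c2 are printed for comparison with that of Rarb, as the called receptors with the largest decreases among those above background on all 6 arrays. Neither holds the direct repeat. Each holds 3 copies of GGGCGG, the GC box read on both strands, here in capitals. That motif was in 32.7% of all windows and in 25 of the 57 windows of receptor genes, which belong to 21 of the 38 genes matched. The receptor repeat unit AGGTCA was in 14.0% of all windows and in 8 of the 57 receptor windows, and in none of the 3 printed here. The Vdr window lies at chr15:97908297-97908546 on the minus strand and the Nr3c2 window at chr8:76902080-76902329 on the plus strand.

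Vdr: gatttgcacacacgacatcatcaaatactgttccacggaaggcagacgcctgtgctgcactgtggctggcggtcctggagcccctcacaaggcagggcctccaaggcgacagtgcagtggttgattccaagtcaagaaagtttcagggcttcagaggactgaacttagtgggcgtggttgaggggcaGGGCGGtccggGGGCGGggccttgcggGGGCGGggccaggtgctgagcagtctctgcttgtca
Nr3c2: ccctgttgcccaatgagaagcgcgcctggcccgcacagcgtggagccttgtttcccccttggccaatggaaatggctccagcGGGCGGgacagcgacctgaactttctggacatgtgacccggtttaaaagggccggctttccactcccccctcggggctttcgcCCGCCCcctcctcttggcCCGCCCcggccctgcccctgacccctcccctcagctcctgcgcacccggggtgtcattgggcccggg

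Nr3c1, the glucocorticoid receptor, stood at 4.31, 4.12 and 4.22 in GGCT-OE cells, against 4.36, 4.16 and 4.23 in empty cells. The groups overlapped, and the difference was -0.04 ± 0.096 (SE, limma adjusted p = 0.808, between -0.10 and 0.02 over 22 alternatives). Esr1, the oestrogen receptor alpha, was read by 6 probes, of which 1 was above background on any array. That probe stood at -6.26, -6.03 and -1.89 in GGCT-OE cells, against -3.81, -3.63 and -3.68 in empty cells. The GGCT-OE arrays of experiments 1 and 2 were below background and that of experiment 3 was the highest of all 6. The difference over all arrays was -1.02 ± 1.1 (SE, adjusted p = 0.544). Without the GGCT-OE array of experiment 3 it was -2.44 (adjusted p = 0.000817), and it stayed negative whichever single array was left out (-2.44 to -0.25). With array weights it was 0.82 (adjusted p = 0.503). Esr2, the oestrogen receptor beta, had 1 probe above background on all 6 arrays (difference 0.19, adjusted p = 0.231) and 1 on none. Pgr, the progesterone receptor, was above background on no array.

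**Figure D2:**
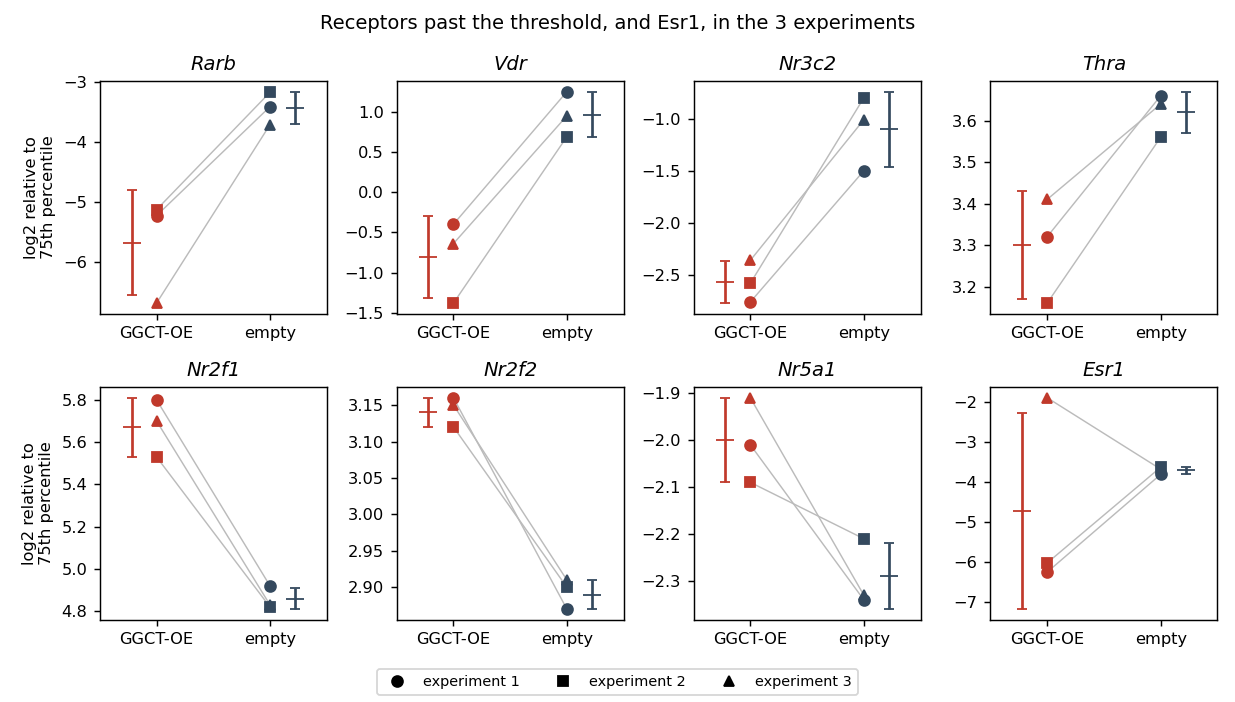
Levels of the 7 called receptors and of Esr1 on each array (log2 relative to the 75th percentile), with lines joining the arrays of an experiment and bars at the mean ± SD of each group, and with a separate y axis in each panel. Rarb, Vdr, Nr3c2 and Thra are lower and Nr2f1, Nr2f2 and Nr5a1 higher in GGCT-OE cells in all 3 experiments, while Esr1 is higher in GGCT-OE cells in experiment 3 and lower in the others.

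All 3 receptors that rose were orphan receptors, and of the 11 orphans tested none fell (27.3% called, against 34.8% of all genes). Nr2f1 (COUP-TFI), a repressor and activator of developmental genes that also competes for retinoid response elements, stood at 5.80, 5.53 and 5.70 in GGCT-OE cells, against 4.92, 4.82 and 4.83 in empty cells. The groups were clearly apart. Nr2f1 rose 1.76-fold (log2 difference 0.82 ± 0.098 SE, limma adjusted p = 0.00195), by 0.88 within slide 1 and 0.78 within slide 2, and by 0.75 to 0.89 over 22 alternatives. It missed the threshold in 1 of them, without both arrays of experiment 3 (adjusted p = 0.0687). Its closest relative Nr2f2 (COUP-TFII), a regulator of mesenchymal and vascular development, stood at 3.16, 3.12 and 3.15 in GGCT-OE cells, against 2.87, 2.90 and 2.91 in empty cells. This small 1.19-fold rise (0.25 ± 0.072 SE, limma adjusted p = 0.0372) kept its size over the alternatives (0.23 to 0.30) but lost the call when any single array was left out, with a median shift (adjusted p = 0.0994) and when dim probes were kept (adjusted p = 0.189). The third COUP family member, Nr2f6 (EAR2), differed by 0.22 ± 0.11 (SE, adjusted p = 0.160, and 0.0322 with the experiment number as a block), with overlapping groups (4.61, 4.47 and 4.39 in GGCT-OE cells, 4.41, 4.18 and 4.22 in empty cells).

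Nr5a1, steroidogenic factor 1 of gonads and adrenals, is a less settled case. Its brightest probe stood at -2.01, -2.09 and -1.91 in GGCT-OE cells, against -2.34, -2.21 and -2.33 in empty cells (difference 0.29 ± 0.088 SE, limma adjusted p = 0.0459). Its other probe differed by -0.66, and with the mean of both the difference was -0.18 (adjusted p = 0.326), so the direction depends on the probe. The call was made in 7 of 22 alternatives.

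The testicular receptors Nr2c1 and Nr2c2, which bind the same direct repeats as retinoid receptors and often repress them, were not called. Nr2c2 stood at 1.09, 1.14 and 1.34 in GGCT-OE cells, against 0.80, 0.94 and 0.90 in empty cells, without overlap. Its difference was 0.31 ± 0.10 (SE, limma adjusted p = 0.0581, and 0.0265 with the experiment number as a block), and its other probes differed by 0.26 and 0.22. For Nr2c1 the brightest probe differed by 0.06 (adjusted p = 0.680) and a dimmer one by 0.60 (adjusted p = 0.00973 with every probe tested on its own).

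Nr4a receptors are immediate early genes that act without ligand, and none of the 3 was called. Nr4a1 (NUR77) stood at 3.37, 3.83 and 3.16 in GGCT-OE cells, against 3.19, 3.28 and 3.14 in empty cells, with the GGCT-OE array of experiment 2 the highest. The differences were 0.25 for Nr4a1 (adjusted p = 0.332), 0.12 for Nr4a2 (adjusted p = 0.428) and -0.01 for Nr4a3 (adjusted p = 0.985). Esrra, an orphan receptor of mitochondrial genes, gave a difference of 0.00 ± 0.084 (SE), and Nr6a1, the germ cell nuclear factor, one of -0.02 ± 0.095. Esrrg, an oestrogen-related receptor, was above background on a single array, the GGCT-OE array of experiment 3 (-2.09, against -7.05 and -6.22 on the other GGCT-OE arrays and -7.28 to -5.31 on the empty arrays), and was not tested. Hnf4g, a hepatocyte nuclear factor, was above background on 2 GGCT-OE arrays and 1 empty array and was not tested. Esrrb, Hnf4a, Nr5a2, Nr2e1 and Nr2e3 were above background on no array.

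Retinoid X receptors, the shared partners, showed no called difference. Rxra stood at 4.94, 4.57 and 4.73 in GGCT-OE cells, against 4.90, 4.50 and 4.59 in empty cells, and Rxrb at 4.54, 4.27 and 4.35, against 4.39, 4.29 and 4.28 in empty cells. Both overlapped, with differences of 0.08 ± 0.15 and 0.07 ± 0.099 (SE). Rxrg was above background on no array. Among the lipid, bile acid and xenobiotic sensors, 3 of 7 were tested and none was called, where 34.8% of all genes were. Nr1h2, the liver X receptor beta, differed by 0.07 ± 0.076 and Ppard, the fatty acid receptor of most tissues, by 0.11 ± 0.075 (SE, adjusted p = 0.507 and 0.294). The xenobiotic receptor Nr1i3 ranged from -2.94 to -1.27 in GGCT-OE cells and from -3.05 to -1.71 in empty cells, with both experiment 1 arrays above the rest. Nr1h3, the liver X receptor alpha, was above background on 2 GGCT-OE arrays and 1 empty array, and Ppara, Nr1h4 and Nr1i2 on none. Nr0b1 and Nr0b2, which lack a DNA-binding domain, were above background on 0 and 2 of the 6 arrays.

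Groups did not overlap for 11 of the 25 receptors tested, where 49.3% of all genes tested did not overlap. These were the 7 called genes and Rarg, Nr2c2, Ppard and Nr1h2. Among the 18 receptors not called, differences lay between -1.02 (Esr1) and 0.31 (Nr2c2). By size of the measured decrease, Vdr ranked 573 and Nr3c2 754 among the 4110 genes called lower, and Nr2f1 ranked 1369 among the 4164 called higher.

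Values of Rara, Rxrb, Nr3c1, Esr1, Esrrg, Nr4a1 and Nr1i3 on single arrays, and the naming of Cyp24a1 and Cyp26a1, were chosen after the values were seen.

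**Figure D3:**
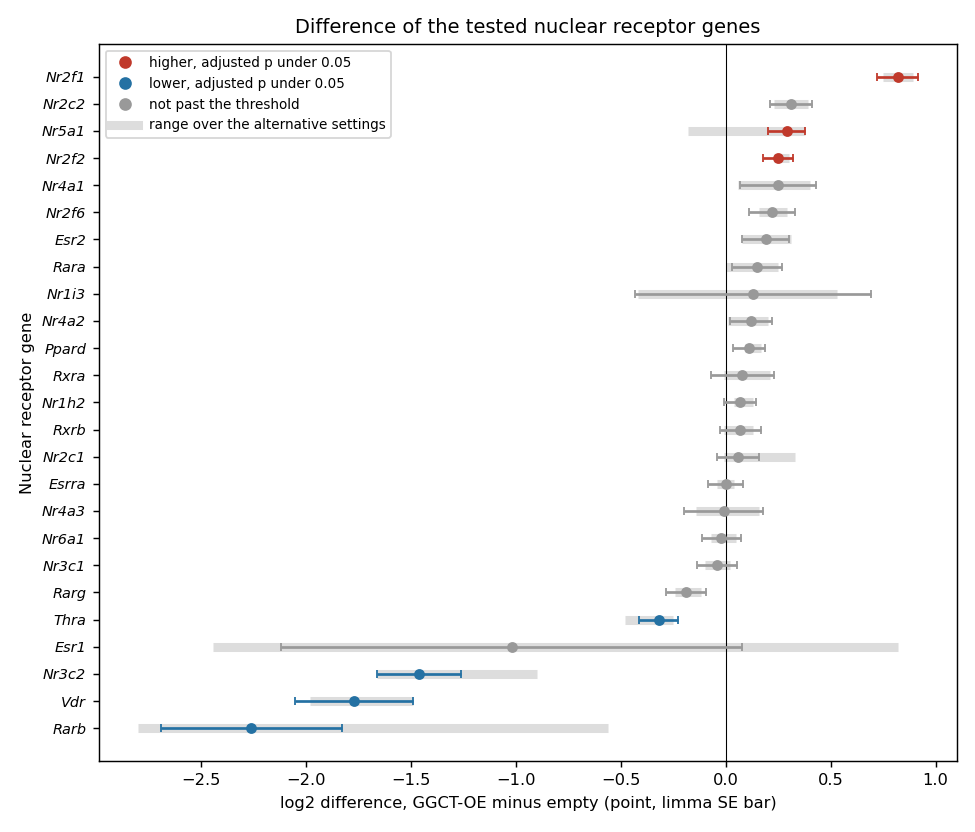
Log2 difference, GGCT-OE minus empty, of the 25 receptors tested, with limma standard errors and, in grey, the range over up to 22 alternative settings. Rarb, Vdr, Nr3c2 and Thra lie below 0, Nr2f1, Nr2f2 and Nr5a1 above, and the grey ranges of Nr5a1 and Esr1, among others, cross 0.

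Of 12 retinoic acid target genes tested, 4 fell and 1 rose (41.7% called, against 34.8% of all genes, list median -0.23). Under the block on experiment number 5 fell and 3 rose, where 53.4% of all genes were called. Rarb is 1 of the 4 that fell. Cyp26b1, which degrades retinoic acid, stood at 0.16, -0.25 and 0.01 in GGCT-OE cells, against 2.50, 2.03 and 2.19 in empty cells. Dhrs3, which turns retinaldehyde back to retinol, stood at -0.05, -0.30 and -0.37 in GGCT-OE cells, against 2.24, 1.75 and 1.98 in empty cells. Neither gene's groups overlapped: Cyp26b1 fell 4.81-fold (-2.27 ± 0.16 SE, limma adjusted p = 0.000319) and Dhrs3 4.70-fold (-2.23 ± 0.15 SE, adjusted p = 0.000281), and both were called in all 22 alternatives. Hoxa4, a homeobox gene, rose 1.94-fold (0.96 ± 0.092 SE, adjusted p = 0.000884). The direct repeat was in the window of Cyp26a1, a related retinoic acid hydroxylase that was above background on no array, besides that of Rarb. No window of Cyp26b1 or Dhrs3 held these letters within the 250 bases searched.

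Enzymes, carriers and transporters of receptor ligands moved both ways. Of 17 tested, 4 rose and 5 fell (52.9% called, against 34.8% of all genes, list median 0.05). Besides Cyp26b1 and Dhrs3, the retinoic acid binding protein Crabp1 stood at 8.64, 8.36 and 8.45 in GGCT-OE cells, against 7.34, 7.37 and 7.27 in empty cells, a 2.23-fold rise (1.16 ± 0.10 SE, limma adjusted p = 0.000611). Fabp5, a fatty acid binding protein that also carries retinoic acid, rose 1.52-fold (0.60 ± 0.096 SE, adjusted p = 0.00517). Rdh10, Aldh1a1 and Hsd11b1 were named after their values were seen. Rdh10, which makes retinaldehyde, rose by 0.67. The retinaldehyde dehydrogenase Aldh1a1 differed by -0.73 and Hsd11b1, which regenerates active glucocorticoid, by -0.92 (limma adjusted p = 0.0405 or less for all 3). The probes of Aldh1a1 and Hsd11b1 were dim in GGCT-OE cells. With normexp background, the Hsd11b1 difference was -0.33, and that of Aldh1a1 was no larger in size. Hsd11b1 was called in 11 of 22 alternatives (adjusted p up to 0.261).

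Coregulators were called in 11 of 29 cases, 7 higher and 4 lower (37.9%, near the 34.8% of all genes, list median 0.09). The coactivator Ppargc1a (PGC-1 alpha), a partner of Esrra and the PPARs in mitochondrial gene control, stood at -7.21, -7.07 and -6.74 in GGCT-OE cells, against -1.81, -1.64 and -1.48 in empty cells. It was above background on no GGCT-OE array and on all empty arrays, and was at least 9.69-fold lower. The fitted difference was -5.36 ± 0.15 (SE, limma adjusted p = 1.94e-05), or -1.61 with normexp background. That size and p-value rest on readings below background, and Ppargc1a passed the filter only through the empty arrays. Ncoa4, a ferritin receptor first named as a coactivator, fell 1.66-fold. Ncoa7 rose 1.56-fold and Trim24, a cofactor of retinoic acid receptors, 1.39-fold (adjusted p = 0.00505 or less for the 3). The corepressor Ncor1 (-0.01) and the coactivators Ncoa2 (0.05) and Med1 (0.01), chosen after their values were seen, did not pass.

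Among 12 receptor chaperones tested, 3 rose and 2 fell (41.7% called, against 34.8% of all genes, list median 0.15). Fkbp5, an immunophilin that lowers hormone binding of steroid receptors and is itself a glucocorticoid target, stood at 3.29, 3.46 and 3.25 in GGCT-OE cells, against 2.01, 2.11 and 2.09 in empty cells (2.40-fold higher, 1.26 ± 0.092 SE, limma adjusted p = 0.000335). Smaller calls were the p23 cochaperone gene Ptges3 (0.45), Hspa8 (-0.35) and Cdc37 (-0.39), each of which missed the threshold in at least 5 of 22 alternatives.

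**Figure D4:**
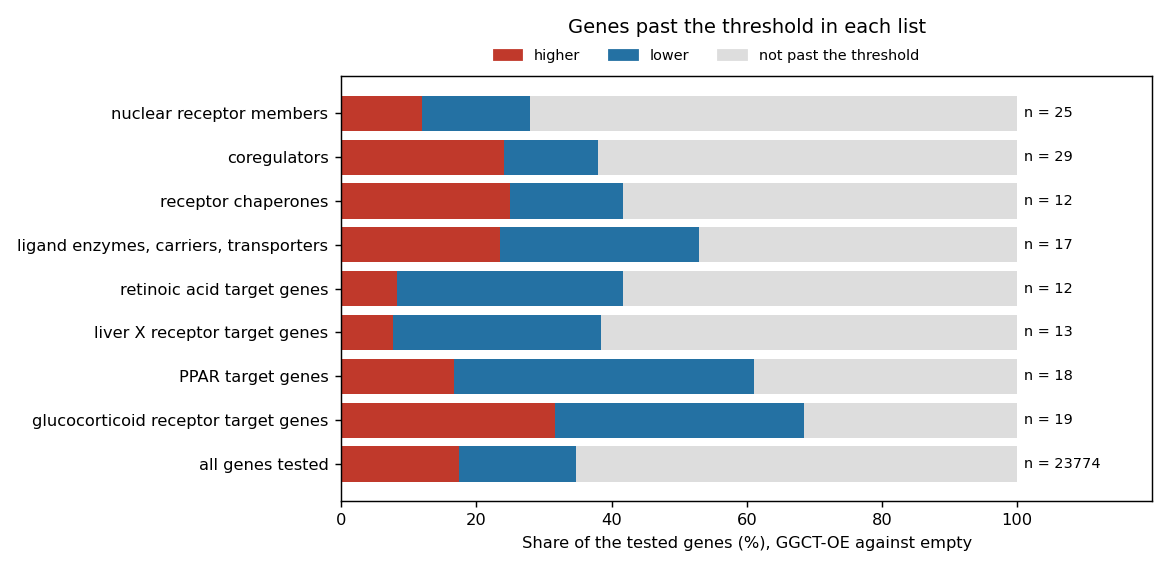
Share of tested genes called higher or lower in GGCT-OE cells for the receptors, the 7 linked lists and all 23774 genes tested, with the number of genes tested at the right. The receptors (28%) lie below the share of all genes (34.8%), and the glucocorticoid target list (68.4%) lies above it.

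Of 13 liver X receptor targets, 4 fell and 1 rose (38.5% called, near the 34.8% of all genes, list median -0.16). Abca1, the cholesterol exporter, stood at -4.21, -4.52 and -4.23 in GGCT-OE cells, against -1.80, -1.85 and -1.72 in empty cells (5.77-fold lower, -2.53 ± 0.11 SE, limma adjusted p = 6.1e-05; -1.17 with normexp background). Mylip, a ligase that degrades the LDL receptor, fell 2.27-fold, the lipoprotein lipase Lpl 2.18-fold and the exporter Abcc1 1.58-fold. The target that rose was Apoe, an apolipoprotein (0.57 ± 0.081 SE, adjusted p = 0.00349). Of other standard targets, named like Apoe after their values were seen, Scd2 (-0.16) and Lpcat3 (0.03) did not pass. Srebf1 (-0.20) did not pass either (adjusted p = 0.249), but was called with the experiment number as a block (adjusted p = 0.0394).

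Of 18 PPAR targets, 8 fell and 3 rose (61.1% called, against 34.8% of all genes, list median -0.14). Pdk4, a kinase that blocks glucose oxidation and a target of both PPARs and the glucocorticoid receptor, stood at 0.76, 0.27 and 0.51 in GGCT-OE cells, against 2.71, 2.53 and 2.56 in empty cells (4.25-fold lower, -2.09 ± 0.14 SE, limma adjusted p = 0.000251). The lipid droplet protein Plin2 fell 2.12-fold, and Creb3l3, a liver transcription factor, was at least 3.56-fold lower. Creb3l3 was above background on no GGCT-OE array and on all empty arrays, so it passed the filter only through the empty arrays. It is counted among the 8 that fell, and with normexp background its difference was -0.75. Angptl4, a lipase inhibitor and a standard Ppard target, rose 1.84-fold (0.88 ± 0.11 SE, adjusted p = 0.00200), opposite to Pdk4 and Plin2.

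Glucocorticoid receptor targets were called in 13 of 19 cases (68.4%, against 34.8% of all genes), 6 higher and 7 lower (list median 0.01). The numbers were the same with the experiment number as a block, where 53.4% of all genes were called. Glul, glutamine synthetase, rose 2.83-fold, and Fkbp5 (above) and Sgk1, a kinase named after its value was seen, rose by 1.26 and 1.38. The metallothioneins Mt2 and Mt1 fell 3.79-fold and 2.70-fold. Of the other standard targets, named after their values were seen, Tsc22d3 (GILZ) differed by -0.42 (adjusted p = 0.0280), Klf9 by -1.28 (adjusted p = 0.000321) and Per1 by 0.10 (adjusted p = 0.537). The called targets thus moved in both directions, beside an Nr3c1 difference of -0.04. Several lists share genes: Dhrs3, Cyp26b1 and Stra6 are in both retinoid lists, and Pdk4, Angptl4 and Fkbp5 each in more than 1 list.

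**Figure D5:**
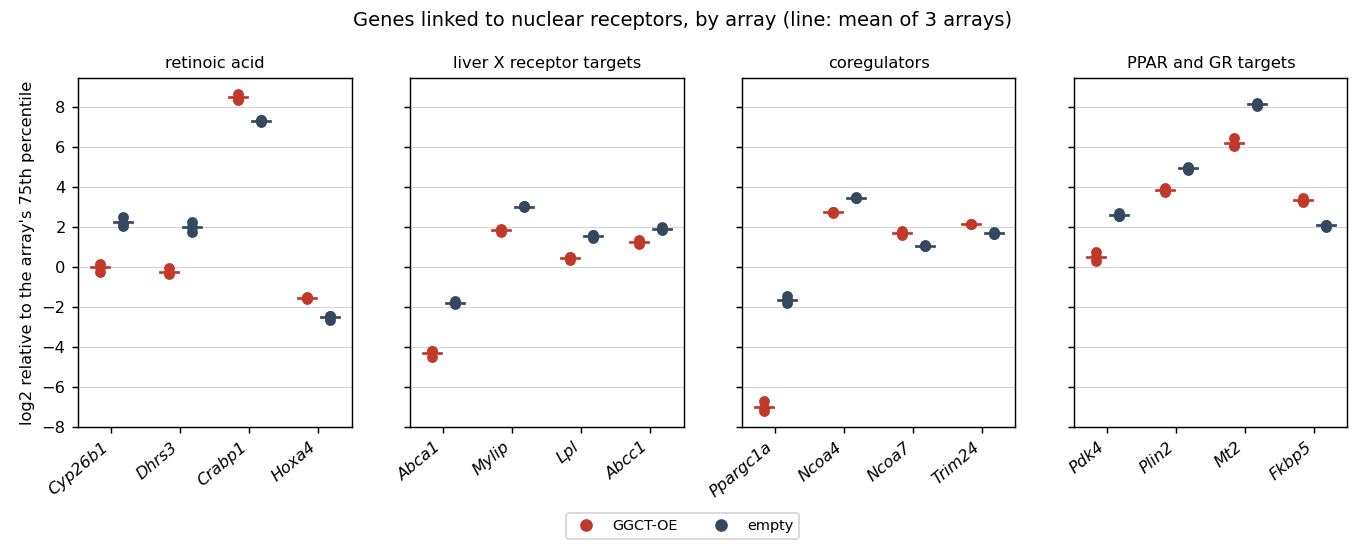
Levels on each array (log2 relative to the 75th percentile, line at the mean of 3 arrays) of 16 genes linked to nuclear receptors, GGCT-OE left of empty, by list. Crabp1, Hoxa4, Ncoa7, Trim24 and Fkbp5 are higher and the other 11 genes lower in GGCT-OE cells, with no overlap of the groups.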

How the data were processed

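RNA of NIH3T3 cells was measured on 6 Agilent 1-colour (Cy3) arrays, 3 GGCT-OE and 3 empty, grouped by sample title. The deposited scanner files hold spot intensities made with Agilent Feature Extraction 12.1.0.3, background-subtracted and detrended within each array, per the file headers. The deposited series table holds log2 values that equalled the log2 processed intensity minus a constant per array (correlation 1 for probes brighter than 200), so scale and direction are known and no centring over arrays was seen; what normalization the authors applied is not stated in any source used here, and its column medians lay between -3.88 and -3.70.

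Control spots (3671 of 62976) and 578 outlier-flagged spots were left out, and spots of a probe were averaged as log2. Accessions without versions named 34504 of 56570 probes through RefSeq (GRCm38.p6); the array grid names mm9, so the coordinates printed are only those of RefSeq promoter windows in GRCm38.p6. The 75th percentile of log2 intensity was subtracted per array, the brightest probe represented a gene, and 23774 genes passed the filter. Differences are GGCT-OE minus empty, and R 4.3.3 with limma 3.58.1 gave the tests (moderated fit over all genes, 2-sided, Benjamini-Hochberg). Where a gene was above background in 1 group only, "at least N-fold" compares the bright group's mean with, per array, the higher of the dim value and the lowest signal well above background. The procedure was checked on simulated data with 50 changed genes at each of 4 sizes. It recovered 6 of 50 at a log2 difference of 0.5, 27 at 1, 44 at 2 and 50 at 4, with 5 false calls. Small differences were thus mostly missed, and a gene that did not pass is not shown to be unchanged. As only these genes were changed there, recovery in the real data may differ.

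Experiment 1 was on slide 1 and in scan 1, and experiments 2 and 3 on slide 2 and in scan 2. Arrays of the same number deviated together from their group means (correlations 0.731, 0.453 and 0.358 across genes). Across numbers on slide 2 the correlations were 0.342 and 0.299, so there the number is hardly told apart from the slide, and between slides -0.556 to -0.465. As every same-number correlation was over 0.1, the title numbers were taken to pair samples. The reported fit did not use this pairing, so its differences, standard errors and p-values are unpaired. It entered only in an alternative, the block on experiment number, which called 53.4% of all genes against 34.8% in the reported fit. The design text calls the experiments independent, but the labels do not say whether the cells were infected anew for each, so p-values cover only the spread among these cultures, which may be technical. The number of arrays limits the precision.

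The members and lists were chosen with earlier results of these data known. Named were all members, with values on every array for called ones, and up to 4 called genes per list by adjusted p; exceptions are stated, and 1 called list gene is not reported here. Alternatives were quantile normalization, a median shift, normexp background (offset 50, median signals), other filters and probe summaries, a trended robust variance, array weights, blocks, slide 2 alone, the deposited values, and leaving out each array or experiment.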

Additional observations from a re-analysis of the deposited data

How the results depend on the processing

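Slide 2 alone and leaving out experiment 1 are the same arrays, and counts of alternatives hold that run under both names. Over 22 alternatives, Vdr and Nr2f1 missed the threshold in 1, Nr3c2 in 2, Rarb in 2 of the 21 that tested it, Thra and Nr2f2 in 12 each and Nr5a1 in 15, where the mean of its probes also turned the direction (-0.18). The replicate block gave 6490 genes higher and 6195 lower, with the slide as a block 6562 and 6191, with array weights 6633 and 6193, and with no filter on dim probes 2218 and 2493 (4164 and 4110 as reported). Receptors called higher were 5 with either block, 6 with array weights and 1 with a median shift, with no filter or on slide 2 alone (3 as reported). With the replicate block the retinoic acid targets called were 8, and liver X receptor targets were 8 with the slide as a block and 9 with array weights (5 each as reported). Coregulators called were 6 with a median shift, 7 with the mean of probes and 4 with no filter (11), PPAR targets 5 with no filter (11) and chaperones 1 with no filter (5). Leaving out arrays gave, as lowest and highest, 692 to 4573 genes higher and 1089 to 4539 lower, 0 to 1 receptors higher and 1 to 4 lower, 1 to 10 coregulators, 1 to 6 chaperones, 3 to 9 PPAR targets, 3 to 8 ligand genes, 3 to 6 liver X receptor targets and 3 to 6 retinoic acid targets. The replicate block removed none of the receptor calls reported, and other lists moved by less than 1.5 times under it. Runs without 1 experiment have 4 arrays and fewer degrees of freedom; other causes were not tested. Among the receptors, dim probes limit Rarb, Esr1 and Esrrg.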

Other observations

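Single bright readings of otherwise dark probes, as for Esrrg, were counted on every array. Probes well above background on 1 array only and brighter than -2.5 there (log2 relative to the 75th percentile) numbered 67, 17 and 106 on the GGCT-OE arrays of experiments 1 to 3, against 29, 1 and 116 on the empty arrays, of 56570 probes. With this brightness threshold, the array of experiment 3 had the most in each group. Without it, the counts were 1740, 297 and 501 on the GGCT-OE arrays and 716, 149 and 414 on the empty arrays. There the array of experiment 1 had the most in each group, so the order depends on the threshold. The threshold was chosen after the values were seen.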
